A study of Homo sapiens with 6 samples.

Results

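The RNA of 9 genes of the transforming growth factor beta (TGF-beta) and bone morphogenetic protein (BMP) pathways was followed after knockdown of the RNA helicase DDX17. The cells were A549, an established human lung adenocarcinoma line. The 9 genes are grouped as signalling output, but they include ligands, receptors and a signal transducer. Only RNA was read here, and the activity of the pathways was not measured. The 9 genes were taken by symbol from the 29476 genes of the read count table: the ligands TGFB1 and TGFB2, the receptors TGFBR1 and TGFBR2, the signal transducer SMAD3, the inhibitor SMAD7, and the target genes ID1, ID2 and ID3. All 9 had a row, and all 9 were among the 15615 genes with enough reads to be tested. Of the 6 libraries, 3 came from cells given a nontargeting siRNA (siCtrl) and 3 from cells given a DDX17 siRNA (siDDX17), with no other genetic change or drug named for either group. The sample labels call the agent a plasmid in one field, whereas the titles and the methods give siRNA. Only 1 siRNA against DDX17 and 1 cell line were used, the cells were grown in serum, and no TGF-beta or BMP was added. A harvest at 48 h is stated for RT-qPCR and not separately for sequencing.

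TGF-beta and BMP ligands are secreted dimers that bring together type I and type II receptor kinases. The receptors phosphorylate SMAD2 and SMAD3 in the TGF-beta and activin branch and SMAD1, SMAD5 and SMAD9 in the BMP branch, and these enter the nucleus with SMAD4. SMAD7 and SMAD6 are induced by the pathway and inhibit it. The ID proteins bind basic helix-loop-helix transcription factors and keep them from DNA, and ID1, ID2 and ID3 are classical BMP targets that TGF-beta can also repress or induce depending on the cell. DDX17 and its paralog DDX5 belong to the Drosha complex, which processes primary microRNAs, and SMAD proteins bind that complex.

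Each library held between 30658136 and 39182371 counted reads, and the 9 genes had between 289 and 13896 reads in a library. Levels are given below as CPM (counts relative to the library total) after scaling of the library sizes by the TMM method. DDX17 stood at 177, 184 and 206 CPM in the siCtrl libraries and at 32.1, 30.8 and 30.4 CPM in the siDDX17 libraries, a log2 fold change of -2.60 (SE 0.0685, adjusted p = 5.89e-11). DDX5 was at 380.1, 410.2 and 418 CPM in siCtrl and at 380.4, 355 and 384 CPM in siDDX17, and did not pass the test (log2 fold change -0.11, adjusted p = 0.142). Without siCtrl replicate 1 it did (-0.16, adjusted p = 0.00430). The epithelial keratin KRT8 was at 2625 to 3416 CPM in every library, whereas the lung lineage genes NKX2-1, SFTPB and SFTPC had at most 19 reads. The endothelial markers PECAM1, VWF and CDH5 had at most 9 reads, the fibroblast markers COL3A1, DCN, LUM and PDGFRB at most 12, and the leukocyte marker PTPRC at most 2. The myeloid marker CD14 was at 20.7 to 28.8 CPM, and its source was not tested. The epithelial markers KRT18, KRT7, KRT19, EPCAM and CDH1 and the immune markers CD3E and CD68 were also listed, and their levels are not given here. In such bulk libraries, fewer cells carrying a transcript and less of it per cell cannot be told apart.

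After DDX17 knockdown, 7 of the 9 genes passed the test, in both directions. ID2, SMAD7, SMAD3 and ID1 were lower in the siDDX17 libraries, TGFBR1, TGFB1 and ID3 were higher, and TGFB2 and TGFBR2 did not pass the test (edgeR quasi-likelihood test, Benjamini-Hochberg adjusted p under 0.05 over all tested genes). ID2 was the only member past a 2-fold change. The 7 calls have to be read against the whole table, where 48.8% of the tested genes passed, 24.5% higher and 24.3% lower, and where the stricter rule with a 2-fold change left 4.65% higher and 2.92% lower. The 2 groups of 3 libraries did not overlap in 7 of the 9 members, against 56.5% of the tested genes. Calls were more frequent among abundant genes, at 58.6% of the 7914 genes at least as abundant as SMAD7, the least abundant member by average CPM. With library size alone as the scaling, the calls over all genes were 67.7% higher rather than 50.1%, and the members kept their 3 higher and 4 lower calls. The log2 fold change of every member was higher with library size alone. It was -0.14 in place of -0.27 for ID1, -0.21 in place of -0.33 for SMAD3 and 0.34 in place of 0.22 for ID3. For ID2 it was -1.33 in place of -1.45, and for SMAD7 -0.65 in place of -0.77. For TGFB1 it was 0.43 in place of 0.31, and for TGFBR1 0.57 in place of 0.45.

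**Figure D1:**
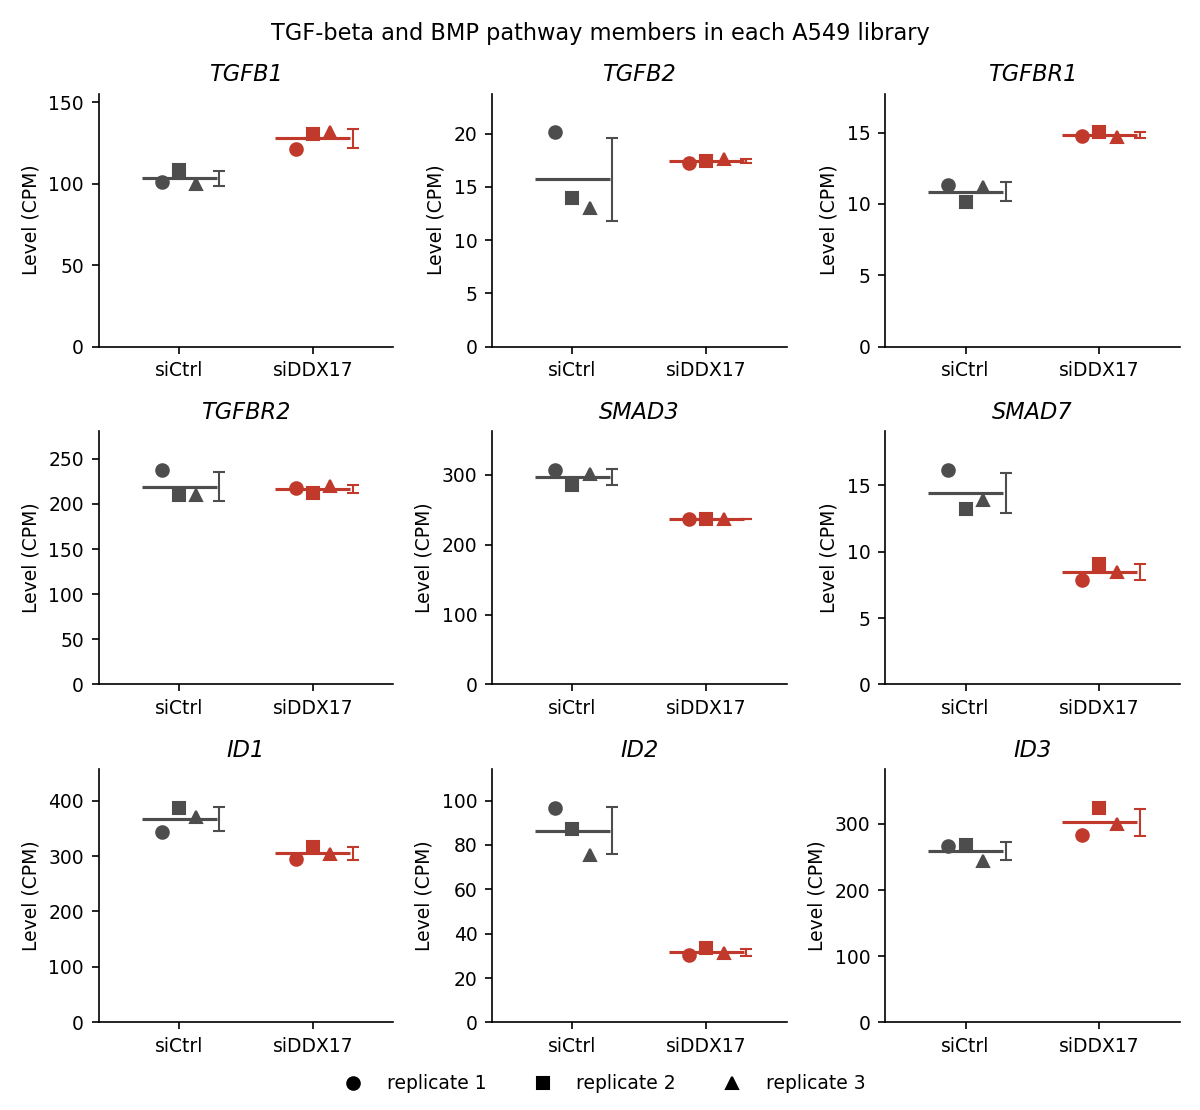
Level of each of the 9 genes in CPM (vertical axes, each from 0) in the 3 siCtrl and the 3 siDDX17 libraries, with the group mean as a horizontal line and the SD as a bar beside it. The siDDX17 points lie below all siCtrl points for SMAD3, SMAD7, ID1 and ID2, above them for TGFB1, TGFBR1 and ID3, and among them for TGFB2 and TGFBR2.

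Among the ligands, TGFB1 (chromosome 19, 41301587 to 41353922 on the minus strand, 7 exons; GRCh38, here and below) encodes the most studied TGF-beta. It was at 101, 109 and 99.9 CPM in siCtrl and at 121, 130.3 and 132 CPM in siDDX17. All 3 siDDX17 libraries lay above all 3 controls, with a log2 fold change of 0.31 (SE 0.0588, adjusted p = 7.44e-04), or 23.7% higher. This change was close in size to that of the median tested gene, whose absolute log2 fold change was 0.29. TGFB1 overlaps several genes on the opposite strand, of which HNRNPUL1 had 10273 to 13529 reads, and whether the counting used the strand of the reads is not stated in the sources used here.

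TGFB2 (chromosome 1, 218345336 to 218444619, plus strand, 7 exons) encodes a second ligand of the same receptors, one that needs the co-receptor TGFBR3 for efficient binding. It was at 20.1, 13.9 and 13.0 CPM in siCtrl and at 17.2, 17.4 and 17.6 CPM in siDDX17. The siDDX17 libraries lay close together and between the controls, of which siCtrl replicate 1 was 1.49 times the mean of the other 2. The log2 fold change of 0.15 (SE 0.13) did not pass the test (adjusted p = 0.371), whereas without siCtrl replicate 1 it was 0.36 (adjusted p = 3.76e-04). The call for TGFB2 was thus decided by 1 library. The same library was the highest control for TGFBR1, TGFBR2, SMAD3, SMAD7 and ID2 and the lowest for ID1, and the dispersion of the whole table, as the biological coefficient of variation, fell from 0.0754 to 0.0472 without it. HERPUD1, which acts in the disposal of misfolded proteins from the endoplasmic reticulum and was singled out after its values were seen, was at 474, 155 and 52.8 CPM in the 3 controls and at 61.0 to 75.7 CPM in siDDX17. What sets that library apart was not tested.

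The receptor genes parted. TGFBR1 (chromosome 9, 99104038 to 99154192, plus strand, 9 exons), the type I receptor kinase that phosphorylates SMAD2 and SMAD3, was at 11.3, 10.1 and 11.2 CPM in siCtrl and at 14.8, 15.0 and 14.7 CPM in siDDX17. The groups were well apart, with a log2 fold change of 0.45 (SE 0.0809, adjusted p = 4.88e-04), or 36.4% higher. TGFBR2 (chromosome 3, 30606601 to 30694142, plus strand, 7 exons), the type II kinase that binds the ligand, was at 238, 209.9 and 210.1 CPM in siCtrl and at 217, 212 and 220.2 CPM in siDDX17. All siDDX17 values of TGFBR2 fell inside the range of the controls, and its log2 fold change was -0.02 (SE 0.0612, adjusted p = 0.825). Its sign depended on the scaling, since it was 0.10 with library size alone.

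SMAD3 and SMAD7 were both lower. SMAD3 (chromosome 15, 67063763 to 67195173, plus strand, 9 exons), the DNA-binding transducer of the TGF-beta branch, was at 307, 285 and 301 CPM in siCtrl and at 236, 237 and 237 CPM in siDDX17. The siDDX17 libraries differed from each other by about 1 CPM, all of them below the controls, and the log2 fold change was -0.33 (SE 0.0539, adjusted p = 2.17e-04), or a mean that fell by 20.4%. SMAD7 (chromosome 18, 48919853 to 48950965, minus strand, 4 exons), which blocks the type I receptors and recruits ubiquitin ligases to them, was at 16.2, 13.2 and 13.9 CPM in siCtrl and at 7.84, 9.05 and 8.49 CPM in siDDX17. Its log2 fold change was -0.77 (SE 0.0986, adjusted p = 2.68e-05), which is a mean that fell by 41.5%. By the size of the change SMAD7 ranked 2167 of the 15615 tested genes, and SMAD3 ranked 7139.

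The ID genes, close relatives that share targets, went in different directions. ID1 and ID3, however, changed less than the median tested gene, whose absolute log2 fold change was 0.29. Only 46.8% of tested genes changed less than ID1, and 39.8% less than ID3. ID1 (chromosome 20, 31605283 to 31606515, plus strand, 2 exons) was at 343, 387 and 371 CPM in siCtrl and at 294, 316 and 304 CPM in siDDX17, lower in every siDDX17 library, with a log2 fold change of -0.27 (SE 0.0604, adjusted p = 0.00238). ID2 (chromosome 2, 8678845 to 8684461, plus strand, 3 exons) was at 96.7, 87.3 and 75.5 CPM in siCtrl and at 30.1, 33.4 and 31.3 CPM in siDDX17. The highest siDDX17 library held less than any control by a wide margin, with a log2 fold change of -1.45 (SE 0.0834, adjusted p = 2.23e-08), or a mean that fell by 63.5%, at rank 361 by size. ID3 (chromosome 1, 23557926 to 23559501, minus strand, 3 exons) went the other way, from 266, 269 and 243 CPM in siCtrl to 283, 324 and 300.1 CPM in siDDX17. Its log2 fold change was 0.22 (SE 0.0649, adjusted p = 0.0123), the weakest of the 7 calls, which was lost without siCtrl replicate 3 (0.18, adjusted p = 0.0573) and without siDDX17 replicate 2 (0.17, adjusted p = 0.0728). ID4, the remaining gene of the family, was below 1 CPM in all 6 libraries, at 0.320 to 0.559 CPM in siCtrl and 0.658 to 0.960 CPM in siDDX17 (log2 fold change 0.79, adjusted p = 0.0439). ID4 is named outside the rule for named genes, and it did not pass without siCtrl replicate 3 (0.56, adjusted p = 0.186), nor without any 1 siDDX17 library (adjusted p of 0.0549 to 0.179), nor with DESeq2 (0.77, adjusted p = 0.118).

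**Figure D2:**
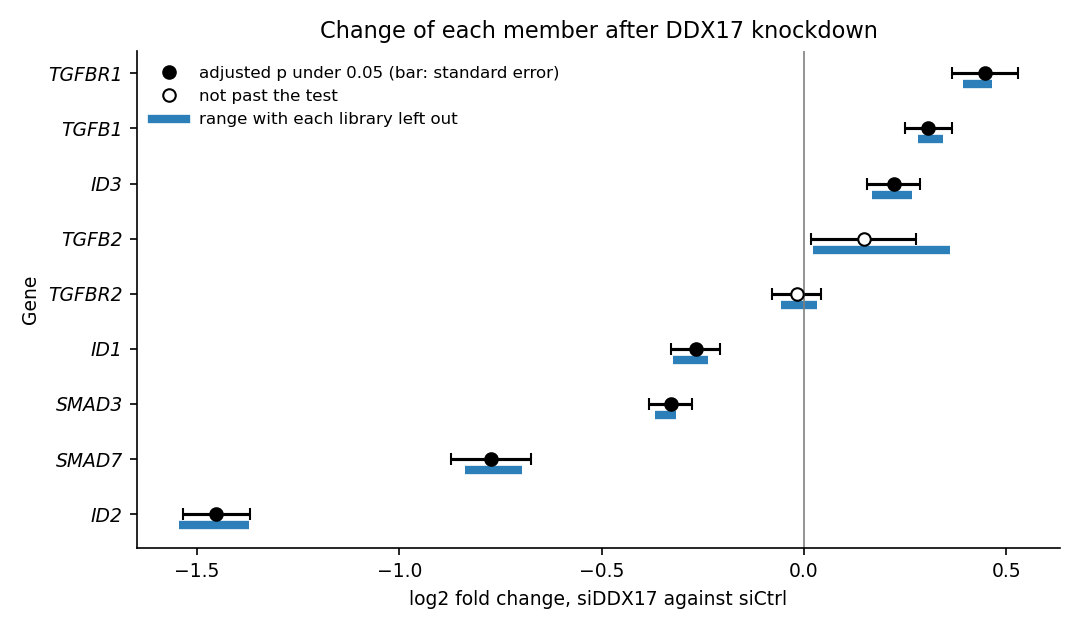
Log2 fold change of each member in siDDX17 against siCtrl (horizontal axis), with the standard error as a bar, a filled point where the adjusted p was under 0.05, and a blue line for the range found when each of the 6 libraries was left out in turn. ID2 stands apart at -1.45, SMAD7 follows at -0.77, and TGFB2 has the widest range, from 0.02 to 0.36.

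Ratios between members counted in the same library do not depend on how the library is scaled. The log2 ratio of ID2 to ID1 reads was -1.83, -2.15 and -2.30 in siCtrl and -3.29, -3.24 and -3.28 in siDDX17, a shift of -1.18. The ID2 to ID3 ratio shifted by -1.67, and the ID3 to ID1 ratio by 0.49, from -0.37, -0.53 and -0.61 to -0.06, 0.04 and -0.02. ID3 thus came level with ID1 in reads. The TGFBR1 to TGFBR2 ratio shifted by 0.47 and the SMAD7 to SMAD3 ratio by -0.44. For each of these 5 ratios the groups did not overlap and the exact permutation test (two-sided) gave p = 0.1, the smallest that 3 libraries against 3 allow, or 0.12 after adjustment over the 6 ratios computed. The TGFB1 to TGFB2 ratio overlapped between the groups (shift 0.13, exact permutation p = 1.0).

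**Figure D3:**
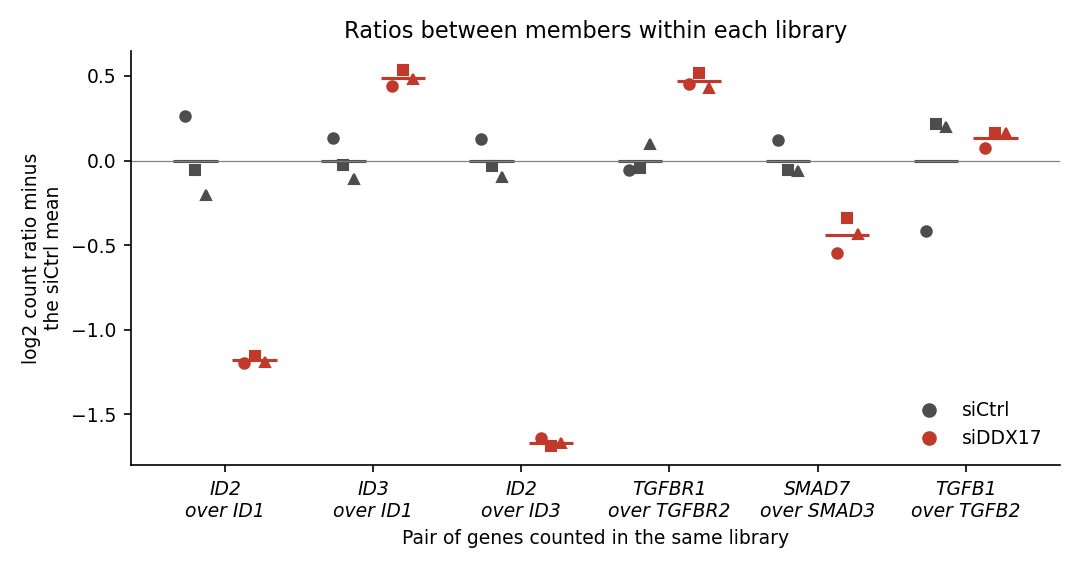
Log2 ratio of the reads of 2 members within each library (vertical axis), with the mean of the siCtrl libraries set to 0 and group means as horizontal lines. The siDDX17 libraries lie together at -1.18 for ID2 over ID1 and at -1.67 for ID2 over ID3, and at positive values for ID3 over ID1 and TGFBR1 over TGFBR2.

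Levels of different genes were compared on the deposited FPKM values, which account for transcript length. In siCtrl the mean FPKM ran from ID1 (272) and ID3 (189.8) through TGFBR2 (42.7), SMAD3 (37.7), ID2 (37.0) and TGFB1 (34.2) down to SMAD7 (4.15), TGFB2 (2.85) and TGFBR1 (1.51). The libraries of SMAD3 and ID2, of ID2 and TGFB1, and of SMAD7 and TGFB2 overlapped, so these neighbours were not set apart. In siDDX17, ID1 (247) and ID3 (242) overlapped, as did TGFB1 (46.2) and TGFBR2 (46.1), followed by SMAD3 (32.8), ID2 (14.8), TGFB2 (3.45), SMAD7 (2.65) and TGFBR1 (2.25). ID2 therefore moved from the level of SMAD3 and TGFB1 to a place well below both, and SMAD7 from above TGFBR1 by a wide margin to just above it.

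**Figure D4:**
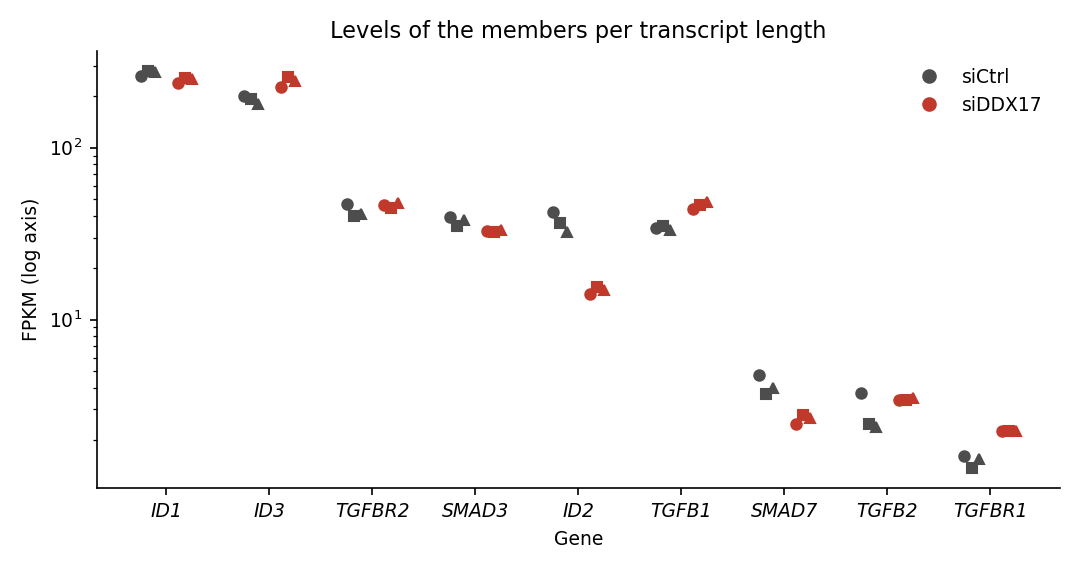
FPKM of each member in every library (logarithmic vertical axis), ordered by the siCtrl mean. ID1 and ID3 lie highest at 178 to 281 FPKM, 4 genes lie in a middle group in siCtrl, and SMAD7, TGFB2 and TGFBR1 lie below 5 FPKM in all libraries.

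Short sequences of 2 kinds are shown because they bear on how these genes could be read. The first holds matches in the 3′ UTRs of the members to the seeds (bases 2 to 8) of the DDX17 siRNA strands, in GENCODE release 44, since a seed match is the part of a transcript through which an siRNA can act on genes other than its target. The letters TATTGCT, which pair with the seed of the antisense strand, were present in the 3′ UTRs of 3 of the 9 members and of 14.49% of 12987 genes, and ATGGGTG, for the sense strand, in 1 of 9 and in 10.53%. Capitals mark the match.
TGFB2, chr1:218441765-218441793, plus strand: tgatttttctgTATTGCTatgcaataggc
TGFB2, chr1:218442244-218442272, plus strand: agaccttaaaaTATTGCTgtatagctatg
TGFB2, chr1:218444209-218444237, plus strand: attcccttattTATTGCTatttggtaatt
TGFBR1, chr9:99149396-99149424, plus strand: gaacagaaggaTATTGCTtccttttgcag
SMAD7, chr18:48920558-48920586, minus strand: ccccctcacagTATTGCTcacccagtgcc
SMAD7, chr18:48919913-48919941, minus strand: tgtttttttctATGGGTGttatcacctag
Of the 3 genes with a match, SMAD7 was lower, TGFBR1 was higher and TGFB2 did not pass the test, and the 3′ UTRs of ID1, ID2, ID3, SMAD3, TGFB1 and TGFBR2 held neither run of letters. The seed matches of the control siRNA, TCGGAGA and TGTCACG, were found in none of the 9. The part of seed matches in these values was not tested. The counts and shares of matches take no account of 3′ UTR length. It was 3257 bases in TGFB2, 4887 in TGFBR1 and 1519 in SMAD7. Of the members without a match, SMAD3 had 4633 and TGFBR2 2543, whereas TGFB1, ID1, ID2 and ID3 had 416 to 784.

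The second set holds the 5-base SMAD box, CAGAC on either strand, in the RefSeq promoters (GRCh38.p14, 250 bases before to 50 after the start, 9 of 9 members matched). It was present in 5 of the 9 members (TGFB2, TGFBR1, SMAD3, SMAD7 and ID3) and in 45.26% of all 35116 promoters. For each member 1 start was read, the one nearest to the start of its canonical GENCODE transcript. The 35116 promoters hold several starts for some genes, as 8 for TGFBR1, so the 2 shares are of unlike units. Both SMAD7 copies and the 1 copy of ID3 are shown, as the SMAD box was present in ID3 and in neither ID1 nor ID2 within this window, and positions count from the start site.
SMAD7 at -217, chr18:48951168-48951192, minus strand: cggacgccccCAGACctctgaggtt
SMAD7 at -128, chr18:48951079-48951103, minus strand: cttattttgcCAGACgtctcatgcg
ID3 at -147, chr1:23559634-23559658, minus strand: tcttcggcgtCAGACcagccggagg
The 8-base palindrome GTCTAGAC, whose last letters are the last 4 of the SMAD box, was in no member promoter and in 0.2022% of all, and the GC-rich element GGCGCC was in 1 member, SMAD3, with 2 copies, and in 19.22% of all. Among the other pathway genes described below, the palindrome stood in the promoters of SMAD6 and DROSHA.
SMAD6 at -12, chr15:66702214-66702241, plus strand: ccgccaaagtGTCTAGACtggcatatga
DROSHA at -118, chr5:31532194-31532221, minus strand: ctgacgattgGTCTAGACgtccatcgct
These are matches of letters and not evidence of a bound factor. Sequence outside this window and at other starts of the members was not read, so an absence holds for the window only.

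The other genes of both pathways were taken from 9 lists with 134 genes in all, of which 112 were tested. Of these, 41 were higher, 28 lower and 43 did not pass, or 61.6% called, and 76 did not overlap between the groups. Over all tested genes 48.8% were called, 24.5% higher and 24.3% lower, and 56.5% did not overlap. Among genes at least as abundant as SMAD7, 58.6% were called. The lists also hold less abundant genes, so that share and the share in the lists are of unlike sets. Past 2-fold, 9 were higher and 6 lower, against 4.65% and 2.92% of all tested genes. Of the higher ones, only COL4A1, ACTA2, CCN1 and TCF3 met the rule for named genes. Of the lower ones, only GDF15, ACVR2B, TGFBR3 and CDKN1A did. The others averaged under 1 log2 CPM or overlapped between the groups. The counts of single lists below have to be read against the same shares. The median log2 fold change over the 112 genes was 0.08, against 0.01 over all tested genes. With library size alone the counts were 52 higher and 22 lower, and over all alternatives they ran from 34 to 52 and from 19 to 31.

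Among 10 tested BMP ligands and antagonists, 6 were higher, none lower and 4 did not pass, with a median log2 fold change of 0.49. Over all tested genes, 24.5% were higher. Of the 20 genes in this list, 8 had too few reads to be tested and 2 had no row. Only BMP6 met the rule for named genes, so the 1 gene past 2-fold averaged under 1 log2 CPM or overlapped between the groups. BMP6, a BMP ligand, was at 14.4, 14.2 and 13.0 CPM in siCtrl and at 23.9, 22.8 and 23.5 CPM in siDDX17 (0.76, SE 0.0743, adjusted p = 2.58e-06), well above every control. Of the 11 tested genes of TGF-beta ligands, latency and activation, 3 were higher and 2 lower (median 0.23), with 6 higher under library size alone and 5 on the log2(FPKM + 0.1) scale or without siCtrl replicate 1. THBS1, a matrix protein that can release active TGF-beta from its latent complex, was at 12.0, 9.72 and 10.1 CPM in siCtrl and at 17.3, 16.4 and 18.2 CPM in siDDX17 (0.70). LTBP4, which tethers latent TGF-beta to the matrix, was at 27.5, 29.5 and 29.4 CPM in siCtrl and at 16.1, 14.1 and 15.0 CPM in siDDX17 (-0.93). Neither gene overlapped between the groups. Of 10 activin, GDF and nodal ligands and antagonists, 5 were higher and 2 lower (median 0.19), with 1 lower under library size alone or on either FPKM scale. GDF15, a stress-induced distant member of the family that signals through its own receptor in the brainstem, was at 161, 138 and 111 CPM in siCtrl and at 35.6, 43.6 and 38.4 CPM in siDDX17 (-1.80, SE 0.115, adjusted p = 5.41e-08). FSTL1, a secreted glycoprotein of the follistatin group, was at 22.2 to 23.9 CPM in siCtrl and 34.1 to 37.2 CPM in siDDX17 (0.60).

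Among 12 tested receptors and co-receptors other than the members, 4 were higher, 4 lower and 4 did not pass (median 0.03). The lower ones were 2 kinases and 2 co-receptors, each without overlap. ACVR2B, an activin type II receptor, was at 9.80, 8.50 and 8.38 CPM in siCtrl and at 3.37, 3.81 and 3.37 CPM in siDDX17 (log2 fold change -1.34), and ACVR1, a BMP type I receptor, at 47.1, 34.7 and 33.8 and at 19.9, 19.9 and 21.6 (-0.91). TGFBR3, the betaglycan co-receptor that presents TGF-beta 2, was at 11.3, 9.93 and 10.5 CPM in siCtrl and at 4.51, 4.50 and 3.92 CPM in siDDX17 (-1.30), and RGMB, a BMP co-receptor, at 14.6 to 19.1 and at 8.31 to 8.93 (-0.93). BMPR2, the BMP type II receptor, was higher, at 13.3, 11.5 and 11.5 CPM in siCtrl and 19.8, 16.7 and 19.1 CPM in siDDX17 (0.61). BMPR1A (0.20, adjusted p = 0.0532), BMPR1B (0.07, adjusted p = 0.603), ACVR1B (-0.01, adjusted p = 0.913) and ACVR2A (-0.16, adjusted p = 0.30) did not pass the test, although BMPR1A passed under 6 of the 15 alternatives, among them without siCtrl replicate 1 (0.22, adjusted p = 0.0263). ACVR1C and ACVRL1 had too few reads to be tested.

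**Figure D5:**
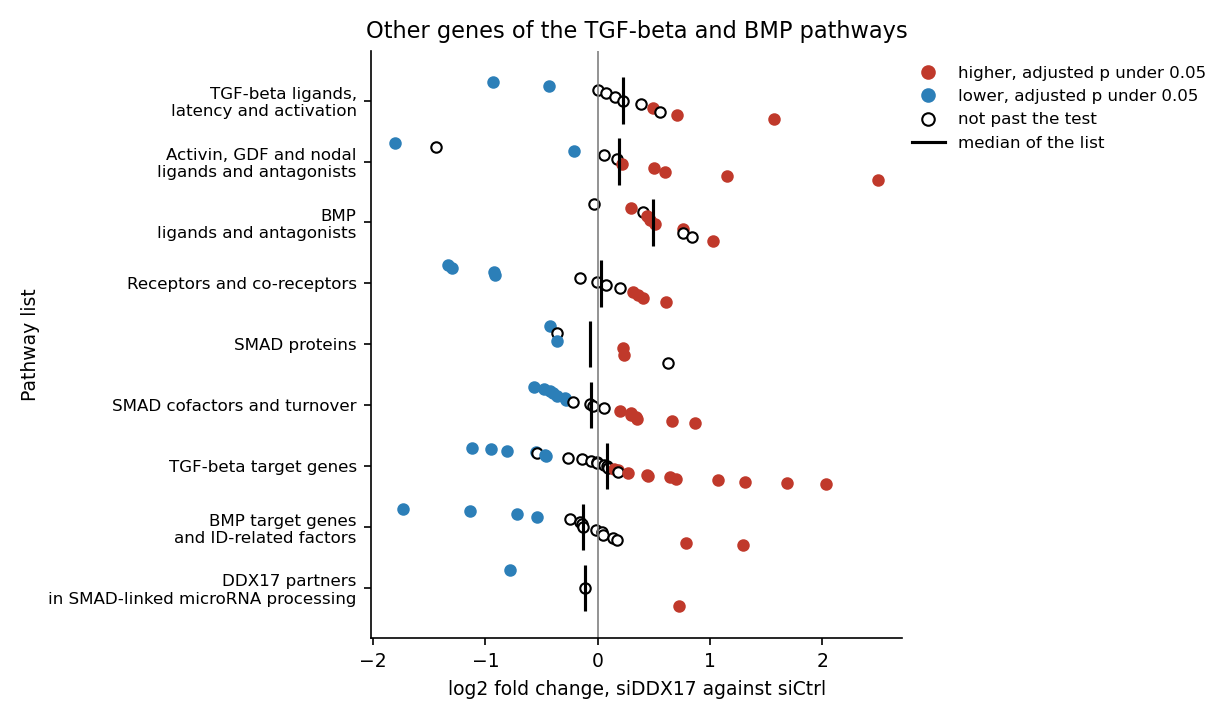
Log2 fold change in siDDX17 against siCtrl (horizontal axis) of the 112 tested pathway genes other than the members, by list, with the median of each list as a vertical stroke. Red and blue points passed the test as higher and lower, and open points did not. Both colours occur in every list but that of BMP ligands and antagonists, where 6 genes were higher and none lower.

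Of the 6 remaining SMAD genes, 2 were higher, 2 lower and 2 did not pass (median -0.07, or 0.05 with library size alone), a split that several alternatives altered. SMAD5, a BMP transducer, was at 31.4, 25.8 and 26.7 CPM in siCtrl and at 19.6, 21.6 and 21.2 CPM in siDDX17 (-0.43, adjusted p = 9.94e-04), and did not pass on the log2(FPKM + 1) scale (-0.23, adjusted p = 0.0546). SMAD4, the common partner, was at 18.1 to 21.9 CPM in siCtrl and 14.5 to 16.2 CPM in siDDX17 (-0.36, adjusted p = 0.00386), a call lost with library size alone (-0.24, adjusted p = 0.0542) and on both FPKM scales (-0.22, adjusted p = 0.135, and -0.15, adjusted p = 0.133). SMAD2, the partner of SMAD3 in the TGF-beta branch, passed with groups that overlapped, at 49.4, 43.5 and 39.1 CPM in siCtrl and 54.9, 47.4 and 53.1 CPM in siDDX17 (0.24, adjusted p = 0.0326). Its call was lost when any library but siCtrl replicate 1 or siDDX17 replicate 2 was left out, with an adjusted p of up to 0.138, and on the log2(FPKM + 0.1) scale (adjusted p = 0.0505). SMAD6, the BMP-branch inhibitor, passed at 0.22 (adjusted p = 0.0483) and lost the call under 8 of the 15 alternatives, among them each left-out library but siCtrl replicate 1. SMAD1 (-0.37, adjusted p = 0.108) and SMAD9 (0.63, adjusted p = 0.0582), both BMP transducers at low levels, did not pass. SMAD1 passed without siDDX17 replicate 1 (-0.53, adjusted p = 0.0470), and SMAD9 under 5 of the alternatives.

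Among 18 tested SMAD cofactors and turnover genes, 7 were higher and 7 lower (median -0.06). With library size alone 7 were higher and 4 lower (median 0.06), and with either FPKM scale 7 and 3. SKI, a corepressor that binds SMAD proteins, was at 11.7, 15.7 and 16.2 CPM in siCtrl and at 26.8, 26.2 and 26.6 CPM in siDDX17 (0.87), and NEDD4L, a ubiquitin ligase that targets activated SMAD2 and SMAD3, at 20.2 to 23.4 and at 33.1 to 34.5 (0.66). Among the 3 partners of DDX17 in SMAD-linked microRNA processing, DROSHA, the nuclease of the complex, was higher (17.6 to 17.8 CPM in siCtrl, 27.8 to 31.5 CPM in siDDX17, 0.72), DGCR8, its RNA-binding partner, lower (22.3 to 22.7 CPM in siCtrl, 12.3 to 13.7 CPM in siDDX17, -0.78), and DDX5 did not pass.

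Genes known to respond to TGF-beta went in both directions. Of 27 tested, 11 were higher, 6 lower and 10 did not pass, with a median log2 fold change of 0.08. The basement membrane collagen COL4A1 was at 5.37, 4.96 and 4.67 CPM in siCtrl and at 20.3, 21.6 and 19.5 CPM in siDDX17 (2.03, SE 0.0908, adjusted p = 2.89e-09). The smooth muscle actin ACTA2 was at 9.51 to 11.3 CPM in siCtrl and at 24.2 to 28.3 CPM in siDDX17 (1.31). The matricellular gene CCN1, listed under its older name CYR61 (1.07), the epithelial-mesenchymal transition factor SNAI2 (0.70) and the actin-binding TAGLN (0.64) were also higher without overlap between the groups, the last 2 at under 4 CPM. CDKN1A, the cell cycle inhibitor p21, was at 452, 472 and 501 CPM in siCtrl and at 210.1, 228 and 216 CPM in siDDX17 (-1.12, SE 0.0600, adjusted p = 1.26e-08). The transcription factor JUNB was at 133 to 146 CPM in siCtrl and 70.8 to 74.0 CPM in siDDX17 (-0.95).

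Of 15 tested BMP targets and ID-related factors, 2 were higher, 4 lower and 9 did not pass (median -0.13), with 1 higher under DESeq2 or without any 1 siDDX17 library. TCF3, which encodes the E proteins E12 and E47 that ID proteins bind, was at 20.6, 22.5 and 22.2 CPM in siCtrl and at 57.3, 53.1 and 49.0 CPM in siDDX17 (1.29, SE 0.0730, adjusted p = 1.98e-08). MSX2, a homeobox gene that responds to BMP, was at 14.4, 14.6 and 15.4 CPM in siCtrl and at 9.42, 9.22 and 8.44 CPM in siDDX17 (-0.72). The 4 lower genes of this list include HERPUD1 (-1.73, adjusted p = 0.0118), whose groups overlapped and which is best known outside the BMP pathway. It was at -0.59 without siCtrl replicate 1 (adjusted p = 0.00331), and did not pass without siDDX17 replicate 2 (-1.81, adjusted p = 0.0550) or replicate 3 (-1.66, adjusted p = 0.0515), with DESeq2 (adjusted p = 0.0670) or on the FPKM scales (-1.07, adjusted p = 0.197, and -1.06, adjusted p = 0.205).

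As a description of pattern, the 8974 tested genes whose average log2 CPM reached 3 were compared with each member by Pearson's r of log2 CPM over the 6 libraries. The most similar to ID2 were ATN1 (r = 0.999) and GDF15 (r = 0.999), to SMAD7 NCAPD2 (0.999) and AVPI1 (0.997), to SMAD3 TMEM243 (0.999) and LEMD3 (0.999), and to ID1 DPP3 (0.998) and RPS19BP1 (0.997). For the genes that were higher, the closest were SMYD3 (0.997) and APOE (0.996) for TGFB1, ALDH5A1 (0.9995) and MRC2 (0.998) for TGFBR1, and RRNAD1 (0.991) and CRAT (0.988) for ID3. TGFB2 was most like HSPA13 (0.995) and PCK2 (0.993), and TGFBR2 like ZNF609 (0.994) and ELF1 (0.989). All of these values rest on 6 points in 2 groups and mostly follow the step between the groups, as 160 genes had r over 0.99 with ID2 and 1 had it with ID3. Pearson's r does not weigh the size of a change. The log2 fold change was -0.41 for ATN1 and -1.80 for GDF15, beside -1.45 for ID2. It was -0.21 for NCAPD2 and -0.36 for AVPI1, beside -0.77 for SMAD7.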

How the data were processed

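Polyadenylated RNA of 6 A549 samples (3 siCtrl, 3 siDDX17; groups from the titles) was sequenced with a stranded kit. The authors trimmed the reads and aligned them with TopHat2 to the GRCh38 genome, using unique alignments. They deposited read counts per gene and, per the file headers, FPKM values, which are normalized for length and depth and rounded; the counting program is not given in the sources used here. Counts were tested with edgeR 4.0.16 in R 4.3.3 (TMM, filterByExpr, glmQLFTest, Benjamini-Hochberg adjustment over 15615 genes), after a test on simulated data. A log2 fold change is the fitted siDDX17 minus siCtrl value, and its SE is the fold change over the square root of F. Ratios used exact permutation tests. The filter on low counts removes genes with few reads, and the scaling sets which genes count as higher.

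Alternatives were DESeq2 1.42.0, RLE scaling, library size only, no filter, the edgeR exact test, a minimum of 10 counts per gene in each library, a replicate block, limma 3.58.1 on log2(FPKM + 1) and log2(FPKM + 0.1), and each library left out. List genes were named if they passed the test without overlap, changed at least 1.5-fold and averaged 1 log2 CPM or more, up to 5 in each direction per list, with all SMADs and type I and II receptors, and for each member the 2 genes most correlated with it. The members and lists were chosen with earlier results of these data known. P-values measure the spread between replicate samples of 1 line. List genes without a row were not analysed here.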

Additional observations from a re-analysis of the deposited data

How the results depend on the processing

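Under the 15 alternatives, TGFB1, TGFBR1, SMAD3, SMAD7, ID1 and ID2 kept direction and call, but not always size. With library size only, log2(FPKM + 0.1) and log2(FPKM + 1), ID1 was at -0.14 each time (adjusted p of up to 0.0391) in place of -0.27, SMAD3 at -0.21, -0.20 and -0.19 in place of -0.33, and ID3 at 0.34, 0.35 and 0.35 in place of 0.22. SMAD7 was at -0.49 with log2(FPKM + 1) in place of -0.77. TGFBR2, which never passed, changed sign to 0.10 with library size only, to 0.11 with log2(FPKM + 0.1), to 0.11 with log2(FPKM + 1) and to 0.0332 without siCtrl replicate 1. With each library left out in turn, TGFBR2 ran from -0.0565 to 0.0332, TGFB2 from 0.0215 to 0.36 and ID3 from 0.17 to 0.27; TGFB2 passed without siCtrl replicate 1, and ID3 did not pass without siCtrl replicate 3 or without siDDX17 replicate 2. DDX5 turned to 0.0138, 0.0187 and 0.0186 with library size only, log2(FPKM + 0.1) and log2(FPKM + 1). ACVR1B, near 0, turned to 0.00318 with at least 10 counts, to 0.11 with library size only, to 0.12 with log2(FPKM + 0.1) and to 0.10 with log2(FPKM + 1), and ran from -0.0373 to 0.0104 with each library left out, positive without siCtrl replicate 3 or siDDX17 replicate 1. BMPR1B ran from -0.0239 to 0.144 and was negative without the same 2 libraries.

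Over all genes, the 3798 lower calls became 2494 with library size only, 2374 with log2(FPKM + 0.1) and 2369 with log2(FPKM + 1). Library size alone, which leaves out the TMM factors, moved the median of all genes by 0.12. Those factors were 0.985, 0.934 and 0.957 in siCtrl and 1.045, 1.03 and 1.056 in siDDX17. Past 2-fold, the 726 higher calls became 160 with log2(FPKM + 1), and the 456 lower calls became 210 with log2(FPKM + 0.1) and 89 with log2(FPKM + 1). A pseudocount shrinks the fold changes of low genes by its construction. Why the TMM factors differed between the groups was not tested, nor was the cause of the other shifts on the FPKM scales. Without the low-count filter, edgeR set an infinite prior on the spread, one shared by genes of like level, so its p-values, such as 2.61e-146 for HERPUD1, did not reflect each gene's own replicates.

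The replicate numbers showed no sign of a pairing. Libraries with the same number had deviations from their group means that correlated at 0.01, 0.04 and -0.06. Those with different numbers ran from -0.0624 to 0.0566. Whether the samples were handled in pairs cannot be read from these values. With the replicate number as a block, the members gave the same 3 higher and 4 lower calls, the pathway lists 41 higher and 28 lower, and all genes 3743 higher and 3738 lower. BMPR1A passed with the block (0.20, adjusted p = 0.0495), and ID4 did not (0.78, adjusted p = 0.0538), which left 1 BMP target as higher.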
